A study of Mus musculus with 2 samples.

Results

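Chromosome 11 carries 7296 of the 92549 H3K56ac intervals that ChIP-seq (chromatin immunoprecipitation and sequencing) gave in mouse embryonic stem cells. Its members are all listed intervals on that chromosome, which was chosen by its interval density, the highest per Mb among the 19 autosomes. The cells were the line E14Tg2a, unmodified and untreated, grown in serum with leukaemia inhibitory factor. One antibody library to histone H3 acetylated at lysine 56 and one input DNA library were made. The interval list of the antibody library was used, and the input library was not analysed here. E14Tg2a is a male line, so the data describe 1 line and 1 library, without a replicate, and no identity marker of the cells can be read from a list of positions.

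Lysine 56 lies in the core of histone H3, where DNA enters and leaves the nucleosome. In mammalian cells the mark is laid down by the acetyltransferases p300 and CBP, which also act at active enhancers and promoters. In embryonic stem cells such elements serve the genes of pluripotency and of general growth. Mouse chromosomes have the centromere at one end, so low coordinates are proximal and high coordinates are distal. Chromosome 11 is known as a gene-rich chromosome, and much of its distal part corresponds to human chromosome 17.

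Each line of the list is a position in build mm9, with no read count, height or score. Width, on a grid of 50 bp, is therefore the only graded property, and sequencing depth is unknown. Positions are counted from 1 with the end included. Intervals of the same library are not replicates of one another. Ranks among autosomes and the spread over the other 18 are given as descriptions, with no test. Every measure of how many intervals lie where shares its source with the rule that chose chromosome 11, so those values describe the choice and support nothing. Widths were not used by the rule. No mm9 sequence or gene annotation was used here, so intervals are given by position only.

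Chromosome 11 held 61.4 intervals per Mb over the 118.8 Mb between its first and last interval (exact Poisson 95% interval 60.0 to 62.8, counting error only, with intervals taken as independent). The next autosome was chromosome 17 with 51.3 per Mb (49.8 to 52.7), and then came chromosome 19 with 48.5 (46.7 to 50.3). The 18 other autosomes pooled had 36.2 per Mb, so that chromosome 11 lay 1.70-fold above them. In number of intervals it stood second to the longer chromosome 2, which had 7333. Interval sequence made up 1.21% of chromosome 11 and between 0.421% (chromosome 13) and 1.01% (chromosome 17) of the others.

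The higher density of chromosome 11 came with more groups of intervals and with fuller ones. Intervals separated by less than 12.5 kb were joined into clusters, a common distance for joining enhancers. Chromosome 11 had 1415 clusters, or 11.91 per Mb (exact Poisson 95% interval 11.30 to 12.55), which overlaps the 11.12 per Mb (10.28 to 12.01) of chromosome 19. Its clusters held 5.16 intervals on average, against 5.17 on chromosome 17 and 4.16 over the pooled other autosomes. On a log2 scale, clusters per Mb made up 59.4% of the difference from the pooled autosomes and intervals per cluster 40.6%. Isolated intervals contributed least: clusters of 1 interval were 1.12-fold denser than on the pooled autosomes, those of 2 to 9 intervals 1.505-fold, and those of 10 or more 1.80-fold. Only 35.3% of its clusters were single intervals, below the 38.7% to 50.1% of the other autosomes.

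Along the chromosome the intervals were spread unevenly, with a sparse proximal stretch and a dense distal one. In 119 bins of 1 Mb the counts ran from 0 to 365, with a median of 36 and quartiles of 12.5 and 93. The median over all 2423 autosomal bins was 17. A bin was called dense when it held at least as many intervals as the 90th percentile of autosomal bins, which was 107.8. Dense bins were 22 of 119 on chromosome 11 (18.5%), beside 10.0% of all autosomal bins and 18.3% on chromosome 17. They held 3865 intervals, 53.0% of the chromosome. That share had rank 4 among the autosomes, and the others ranged from 11.7% on chromosome 13 to 60.4% on chromosome 17.

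**Figure D1:**
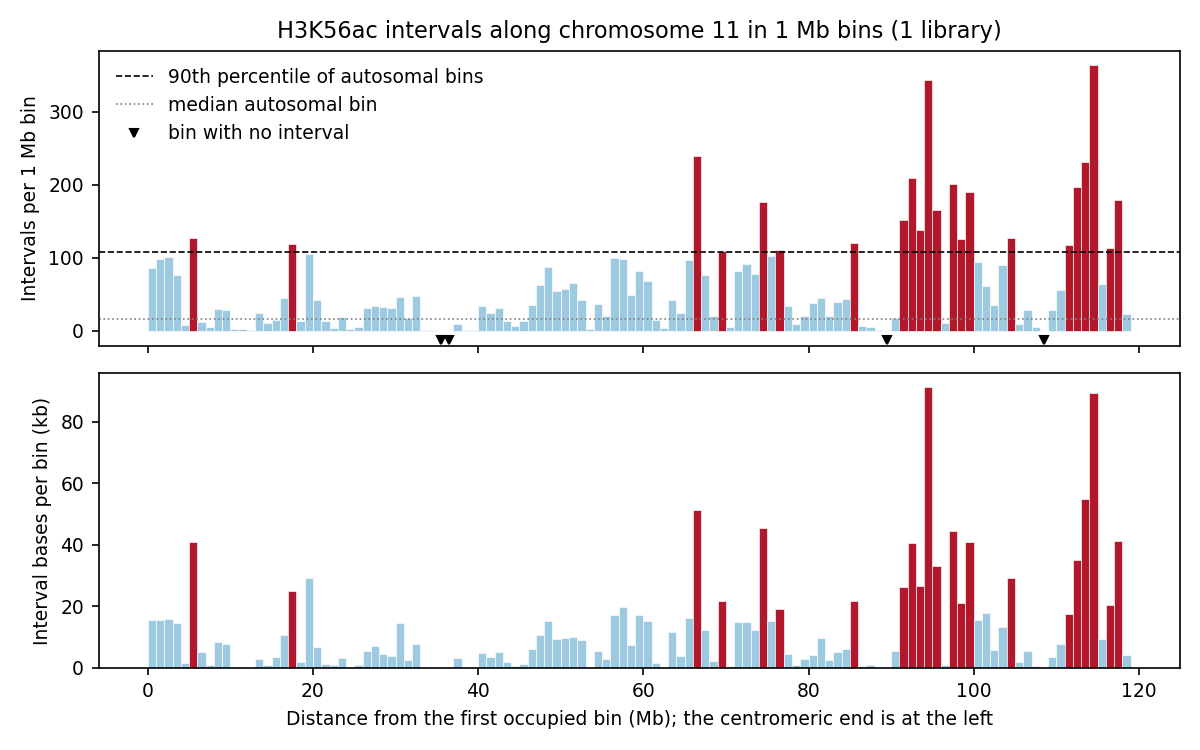
Number of H3K56ac intervals (top) and kb of interval sequence (bottom) in each 1 Mb bin of chromosome 11, plotted by distance in Mb from the first occupied bin, with dense bins in red and empty bins marked by triangles. Of the 22 dense bins, 2 lie in the first 60 Mb, and the highest bars are the bins of 365 and 344 intervals in the distal part.

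The 22 dense bins of chromosome 11 formed 12 blocks of neighbouring bins. Of these, 8 were lone bins, 1 had 2 bins and 3 had 3 or more. The 3 long blocks together held 2440 intervals, 33.4% of the chromosome, in 12 bins. All 3 lay beyond position 94 Mb. Over the autosomes there were 135 dense blocks, of which 24 had 3 or more bins. Chromosomes 5, 15 and 19 had a larger share of their intervals in such long blocks, and the remaining autosomes a smaller one. The long blocks of chromosome 15 held 22.1%, 20.6% and 14.3% of its intervals, and those of chromosome 19 held 21.6% and 18.6%.

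The longest dense block of chromosome 11 ran over 5 bins from 94000001 to 99000000 and held 1010 intervals with 217.9 kb of interval sequence. Its bins held 152, 210, 138, 344 and 166 intervals in order of position. The edges were sharp, since the bin before it held 18 intervals and the bin after it 11. Ordered by length and then by intervals, this block was the third of the 135, after one of 10 bins on chromosome 4 and one of 6 bins on chromosome 15.

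A second long block lay just beyond the sparse bin from 99000001 to 100000000, which held 11 intervals with a mean width of 90.9 bp. It covered 100000001 to 103000000 with 201, 126 and 191 intervals. The next bin, with 94 intervals, was below the threshold. The bin of 11 thus separated 2 dense stretches that hold 1528 intervals between them.

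The third long block covered 114000001 to 118000000, with 118, 197, 232 and 365 intervals in order, 912 in all and 196.7 kb of interval sequence. Counts rose from bin to bin toward the distal side and then fell to 64 in the next bin, a step of 301 that was the largest between neighbouring bins of the chromosome. Past it, the bins from 119000001 to 121000000 held 113 and 180 intervals and formed the block of 2 bins. The last bin of the list, from 121000001, held 23.

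The 5 densest bins were spread over 3 of these blocks. The bin from 117000001 to 118000000 held 365 intervals (exact Poisson 95% interval 328.5 to 404.4) and that from 97000001 to 98000000 held 344 (308.6 to 382.3), ranks 1 and 2 of the autosomal bins. The counting intervals of these 2 bins overlap each other and that of the next autosomal bin, on chromosome 10, with 325 (290.6 to 362.3). The third bin of chromosome 11, from 69000001 to 70000000, held 240 and stood alone: the bins on either side held 97 and 77 and were not dense. The fourth and the fifth, with 232 and 210 intervals, belonged to the distal and the longest block.

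Lone dense bins were found also in the proximal part. The bin from 8000001 to 9000000 held 128 intervals between bins of 8 and 12. The bin from 20000001 to 21000000 held 119, between bins of 45 and 14. The other lone bins, beside the one at 69 Mb, began at 72000001 (110 intervals), 77000001 (176), 79000001 (111), 88000001 (120) and 107000001 (128). The bins of 110 and 111 were the closest above the threshold, and the bin from 22000001, with 106, was the closest below it.

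Few stretches of chromosome 11 lacked H3K56ac intervals. Only 4 of its 119 bins were empty (3.36%), beside 10.4% of all autosomal bins. The other autosomes ranged from 3.31% on chromosome 9 to 19.4% on chromosome 8. The share was 0.31 times that of the pooled other autosomes (rank 18 of 19), but 0.57 times with bins of 0.5 Mb and 0.63 times with bins of 2 Mb, where chromosome 11 had rank 13. The empty bins were the pair from 38000001 to 40000000 and those that began at 92000001 and 111000001. A further 15 bins held 1 to 5 intervals.

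Gaps of more than 1 Mb between neighbouring intervals numbered 9 on chromosome 11 and 331 on all autosomes. They took up 15.1 Mb, or 12.7% of the span, where the other autosomes had 9.72% to 33.1%. The longest gap, 3.46 Mb from 37049951 to 40505450, had rank 16 among the autosomal gaps. It was followed by 2.59 Mb from 91158901 to 93746300, which ends shortly before the longest dense block. The next were 1.69 Mb from 110950351 to 112643850, which precedes the third long block, 1.35 Mb from 40571401 to 41922700 and 1.35 Mb from 9283251 to 10630200. Between the first and the fourth of these gaps lay 10 intervals in the bin from 40000001, so that a stretch from 36 to 43 Mb held 14 intervals in 7 bins.

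**Figure D2:**
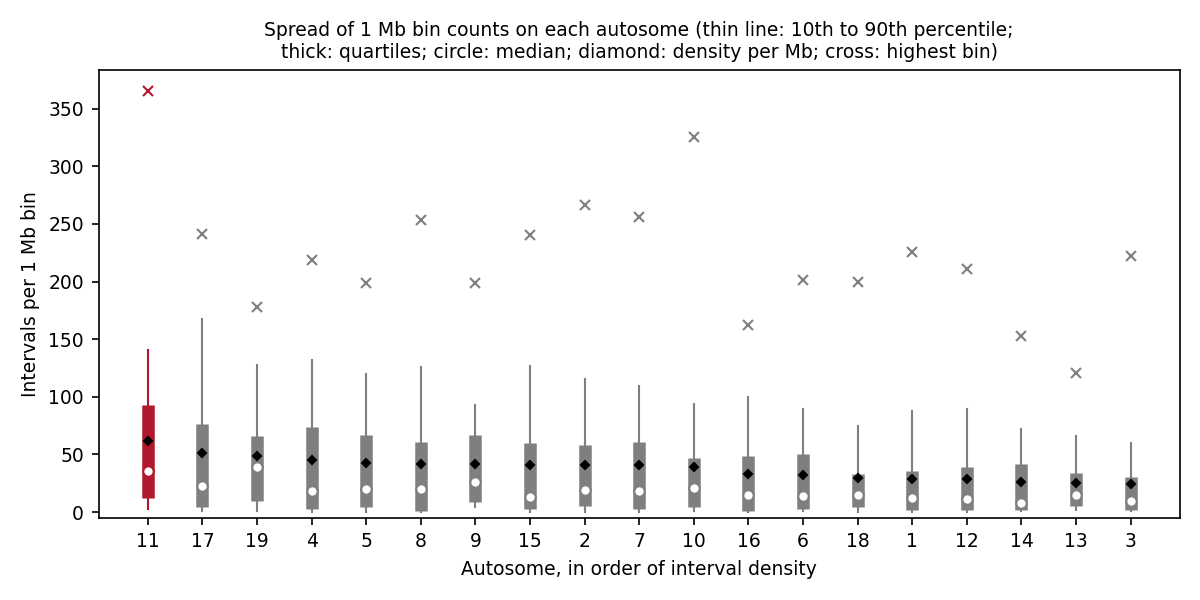
Intervals per 1 Mb bin on each of the 19 autosomes, ordered by density per Mb (black diamonds), with the 10th to 90th percentile as a thin line, the quartiles as a thick bar, the median as a white circle and the highest bin as a cross. Chromosome 11, in red, has the highest upper and lower quartile, while chromosome 19 has the higher median and chromosome 17 the higher 90th percentile.

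Bins of low and middling count were also fuller on chromosome 11. Its lower quartile of bin counts, 12.5, was above that of all 18 other autosomes (1 to 9.5), as was its upper quartile, 93 (30 to 76). Its median of 36 was exceeded by chromosome 19 with 39, its 10th percentile of 2.8 by chromosome 9 with 4, and its 90th percentile of 140.8 by chromosome 17 with 167.8. With the densest 10% of the bins of every autosome left out, chromosome 11 still averaged 43.4 intervals per bin, ahead of chromosome 19 with 36.02. Leaving out only bins of chromosome 11, the 6 densest brought its mean below that of chromosome 17, and the 21 densest brought it below the mean of the 18 others.

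Intervals of chromosome 11 were less concentrated in its top bins than on most autosomes. The densest 10% of its bins, 12 in number, held 36.4% of its intervals. On the other autosomes this share ran from 32.3% on chromosome 19 to 47.7% on chromosome 18, and 14 of 18 were higher. Counts of bins 1 Mb apart were correlated along chromosome 11 (r = 0.48 across bins, range on the other autosomes 0.32 to 0.74), and those 5 Mb apart were nearly uncorrelated (r = 0.06, range -0.12 to 0.44). These are descriptions over neighbouring bins, which share clusters and are not independent.

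The density of chromosome 11 climbed toward its distal end, though not without a break. The span was divided into 10 equal stretches of 11.9 Mb. From proximal to distal they held 48.6, 35.0, 21.3, 18.8, 57.2, 62.1, 68.1, 91.0, 95.9 and 116.3 intervals per Mb. The third and the fourth were thus the sparsest, and from the fifth on each stretch was denser than the one before it. This steady rise depended on where the stretches were cut. On a grid of 10 Mb, the bins from 80000001 to 90000000 averaged only 37.7 intervals. Those of the 10 Mb before averaged 85.3 and those of the 10 Mb after 104.6. The medians of the 18 other autosomes stayed between 20.4 and 51.2 in all 10 stretches.

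**Figure D3:**
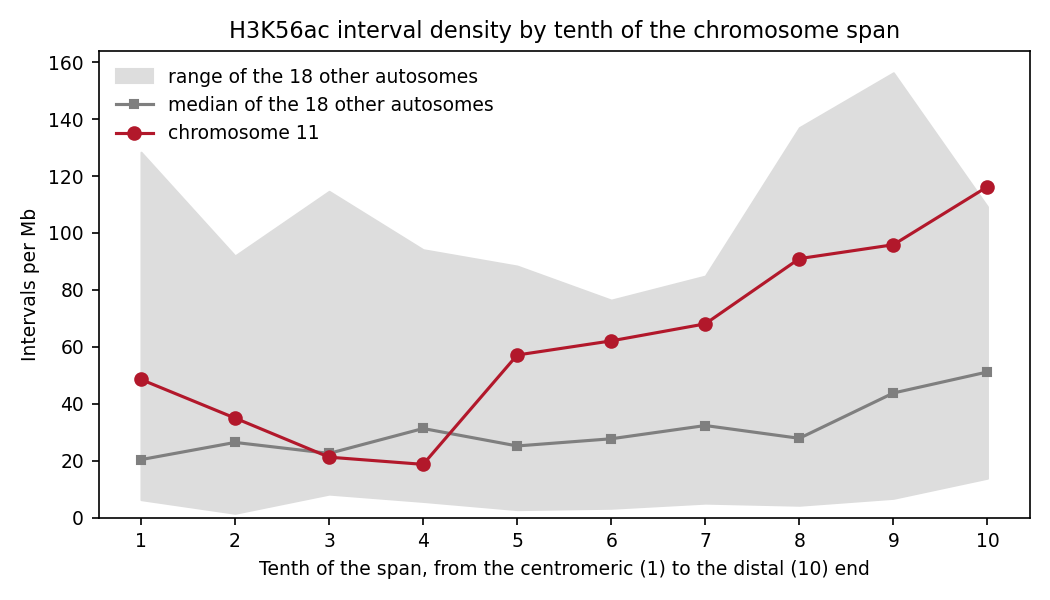
H3K56ac intervals per Mb in 10 equal stretches of the span, from the centromeric to the distal end, for chromosome 11 (red) and for the other 18 autosomes (grey line, median; shading, lowest to highest). Chromosome 11 falls to 18.8 in the fourth stretch, below the median of 31.4, and reaches 116.3 in the last, above the highest other autosome at 109.2.

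Against the pooled density of the other autosomes over their whole span, the net excess of chromosome 11 lay in its distal 50%. At the pooled density of the others its span would hold 2992 fewer intervals than it did. The first 50% of the span held 36.2 intervals per Mb, the same as that pooled density to 3 digits, and contributed -4.16 to the 2992. Set against the first 50% of the other autosomes, which pooled to 30.0 per Mb, it was 1.21-fold denser and had rank 6, with chromosome 17 first at 70.3. The last 50% held 86.7 per Mb, above all the other autosomes (16.1 to 70.4). The last 30% alone held 49.4% of the intervals of chromosome 11, at 101.0 per Mb, and was matched by chromosome 4 at 101.1.

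The last 10% of chromosome 11 was denser than that of any other autosome, but 4 other autosomes rose more steeply. The last 10% of the span held 1381 intervals at 116.3 per Mb, against 55.3 in the rest, a ratio of 2.10. That ratio had rank 5 of 19, below chromosome 15 with 3.25 and chromosome 2 with 2.85. Of the other 18 autosomes 13 had a ratio over 1, and the lowest was 0.51 on chromosome 18. In the last 5% of the span the density of chromosome 11 was 168.9 per Mb and the ratio 3.03, second to chromosome 15 at 4.67. In the last 20% its density was 106.1 per Mb, below chromosome 4 with 122.9. The ratio there was 2.11, rank 6, with chromosome 4 highest at 4.71.

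Distal intervals of chromosome 11 had the highest mean width of the 19 distal ends. It was 205.4 bp in the last 10% and 196.0 bp in the rest of the chromosome. The distal value rested largely on the bins from 116000001 and 117000001, whose 232 and 365 intervals averaged 236.0 and 244.7 bp. Each of these bins held 12 intervals of 1000 bp or longer. Of the other bins from 110000001 on, only that from 120000001 exceeded 196.0 bp, with 228.6 bp. The distal mean without the first-named bins was not computed. The last 10% of the other autosomes averaged between 152.2 bp (chromosome 1) and 199.1 bp (chromosome 15). No error of these means was computed, so the order of chromosomes 11 and 15 is not established. In the last 5% the mean on chromosome 11 was 223.1 bp, against 91.7 bp (chromosome 18, only 6 intervals) to 210.1 bp. There 3.29% of intervals were 1000 bp or longer, against 0% to 2.21%. In the last 10% that share was 2.53%, rank 3 of 19, below chromosome 19 with 3.06% and chromosome 12 with 2.70%. On 7 of the 18 other autosomes the last 10% had a higher mean width than the rest, as on chromosome 11, and on 11 it was lower. No test of this difference was made.

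The 5 clusters with the most interval sequence all lay in dense bins. Their own intervals count toward the threshold of 107.8 per bin, so this was in part fixed in advance. The largest ran from 117723951 to 117957050, with 161 intervals covering 48.5 kb (20.8% of its length), 9 of them 1000 bp or longer. It had rank 3 among autosomal clusters and accounted for 3.36% of the interval bases of the chromosome. The second, from 8441451 to 8596400, had 110 intervals covering 39.6 kb (25.6%), 11 of them 1000 bp or longer. This proximal cluster held most of the 128 intervals of its lone dense bin.

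The third and the fourth cluster lay on either side of the sparse bin at 99 Mb. The dense bin of 166 intervals lay between that bin and the third cluster. One ran from 97361851 to 97565000 with 116 intervals and 36.5 kb, the other from 100115201 to 100302300 with 105 intervals and 29.2 kb. They differed in their widest interval, which was 2750 bp in the former and 1250 bp in the latter. The fifth cluster, from 69466551 to 69532950, was the most compact of these 5, with 56 intervals covering 26.7% of 66.4 kb. The 5 together held 171.5 kb, or 11.9% of the interval bases.

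Large clusters were numerous on chromosome 11. Of the 216 autosomal clusters that made up the top 1% by interval bases (9300 bp or more; 1.01% of all clusters with ties), 25 were on chromosome 11. That is 1.77% of its clusters, below the 1.97% of chromosome 17. Per length it is 2.10 per 10 Mb, close to the 1.95 per 10 Mb of chromosome 17, while the other 17 autosomes had at most 1.20. These 25 clusters held 28.9% of the interval bases of the chromosome, and 13 of them lay in the 3 long dense blocks. Counted from the largest down, 84 of the 1415 clusters held 50% of the bases.

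Intervals of chromosome 11 were on average among the widest of the autosomes. The mean width was 197.8 bp (SE 2.98, taking intervals as independent), against 182.7 ± 9.68 bp (SD, 18 autosomes). Chromosome 18 was higher with 199.5 bp (SE 6.17) and chromosome 17 nearly equal with 197.1 bp (SE 3.97), so the order of these 3 is within the error. The median was 100 bp on all 19 autosomes. Chromosome 11 had the smallest share of 50 bp intervals, 28.8%, but chromosome 17 lay at the same value to 3 digits and the range ended at 32.7%. Its widest interval, 3000 bp, was shorter than the widest on 15 of the other autosomes, of which chromosome 18 reached 7250 bp.

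The density of chromosome 11 relative to the pooled autosomes grew with interval width. It was 1.59-fold for intervals of 50 bp, 1.63-fold for 100 bp, 1.76-fold for 150 to 450 bp, 2.01-fold for 500 to 950 bp and 2.30-fold for 1000 bp or more. The 23 intervals of 2000 bp or more were 2.33-fold denser, at 0.194 per Mb, but chromosome 17 was higher there with 0.195. The same series was not computed for any other single autosome, so it is not shown to be particular to chromosome 11. Intervals of at least 1000 bp numbered 153, which was 2.10% of the chromosome beside 1.59% of all autosomal intervals. Chromosome 18 had the higher share, 2.27%, and the lowest was 0.905% on chromosome 5.

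The wide intervals of chromosome 11 lay in company. All 153 had another interval within 10 kb, against 91.5% of all its intervals, and 138 of them (90.2%) had 6 or more, against 49.0%. On 12 of the other 18 autosomes, too, no interval of 1000 bp or more was without a neighbour at that distance. On every other autosome most such intervals had 6 or more neighbours, from 23 of 30 on chromosome 13 to 47 of 50 on chromosome 3. The 153 of chromosome 11 fell in 81 clusters and 53 bins. Of these intervals, 102 (66.7%) lay in dense bins, which held 53.0% of all intervals of the chromosome. The 2 longest, 3000 bp each, ran from 8523501 to 8526500 and from 117868201 to 117871200, in the second and the largest cluster. Those of 2900 bp ran from 8472601 to 8475500, again in the second cluster, and from 77698251 to 77701150, in a cluster of 50 intervals. The fifth, 2850 bp from 68839301 to 68842150, was part of a cluster of 23, in a bin whose 97 intervals were below the dense threshold.

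Width rose with the number of neighbouring intervals on chromosome 11. Mean width was 109.1 bp for the 619 intervals with no other interval within 10 kb, 134.1 bp for the 741 with 1, 132.3 bp for the 694 with 2, 167.7 bp for the 1668 with 3 to 5 and 253.1 bp for the 3574 with 6 or more. Mean width did not rise from 1 to 2 neighbours, and intervals of 50 bp were 39.0% of those with 2 neighbours, above the 28.9% to 38.0% of the other autosomes. None of the 1360 intervals with fewer than 2 neighbours was 1000 bp long, whereas 3.86% of those with 6 or more were. Width and neighbours come from the same calls, and what both owe to the calling was not tested.

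**Figure D4:**
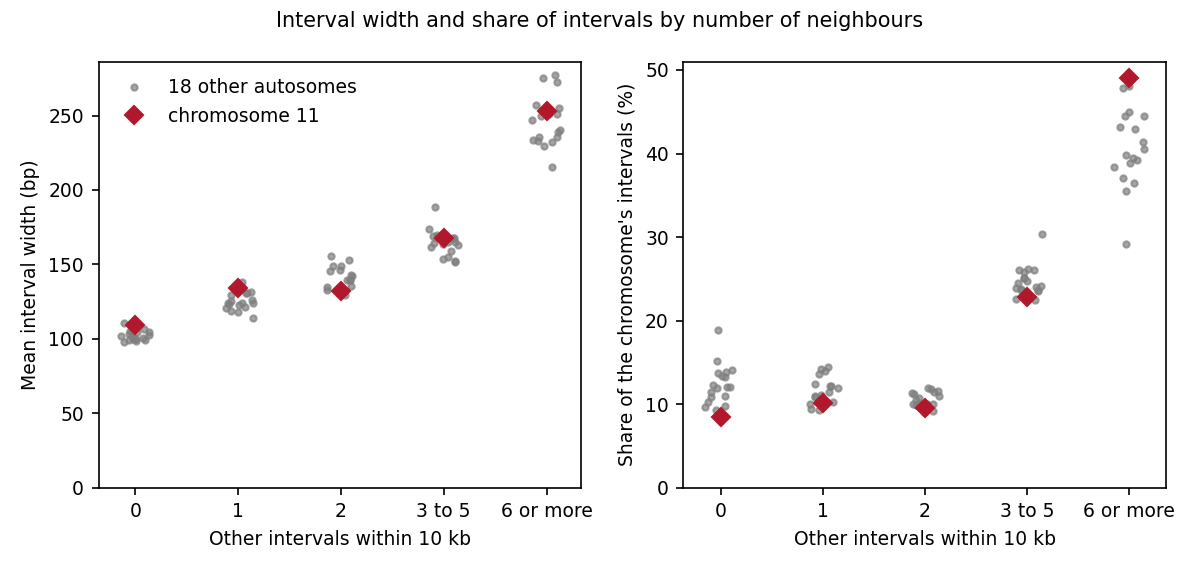
Mean interval width in bp (left) and share of a chromosome's intervals in percent (right) by number of other intervals within 10 kb, for chromosome 11 (red diamonds) and each of the 18 other autosomes (grey points, shifted sideways at random). Chromosome 11 lies within the grey points for width in every class, and above them in the share with 6 or more neighbours (49.0%).

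Within classes of neighbour number, widths on chromosome 11 were similar to those of other autosomes. The top class has no upper limit, so neighbour numbers can still differ between autosomes within it. In the class with 6 or more neighbours its mean of 253.1 bp had rank 6 (others 215.2 to 277.3 bp), and in that with none its mean of 109.1 bp had rank 2 (97.9 to 110.7 bp). It lay at the end of the range in the makeup of the classes. Intervals with 6 or more neighbours were 49.0% of the chromosome, against 29.2% to 48.1% elsewhere, and intervals with none were 8.48%, against 9.29% to 18.9%. When the class means of each other autosome were weighted by the class shares of chromosome 11, they averaged 192.9 ± 10.2 bp (SD, 18 autosomes), and 4 of them exceeded 197.8 bp.

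The same held at the scale of bins. Mean width on chromosome 11 was 216.6 bp in dense bins, 178.5 bp in the bins between the autosomal median and the dense threshold, and 149.8 bp in sparser bins, where only 219 of its intervals lay. These values had ranks 6, 7 and 3 among the autosomes. Across its bins of at least 10 intervals, count and mean width were related with Spearman's rho of 0.42 (94 bins; 0.28 to 0.66 on the other autosomes), a description over bins that share clusters. Some sparse bins had wide intervals all the same: the bin from 9000001 to 10000000, next to the large proximal cluster, held 12 intervals with a mean of 429.2 bp. Among bins of at least 10 intervals, the lowest means were 86.4 bp in the bin from 17000001 and 90.9 bp in the bin of 11 intervals at 99 Mb.

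Chromosome 11 has many genes, and per gene its interval number was ordinary. RefSeq names of protein-coding genes (assembly GRCm38.p6) were counted by chromosome, without coordinates, because the list is in another build. There were 1609 on chromosome 11, rank 3 among the autosomes. That gave 4.53 intervals per gene name, rank 10 of 19, in a range of 3.00 on chromosome 7 to 5.32 on chromosome 15 (median of the other 18, 4.53). Per Mb of interval span it has 13.5 gene names, second to chromosome 7 with 13.6.

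Over the 19 autosomes, gene names per Mb and intervals per Mb were related with Pearson's r = 0.83 and Spearman's rho = 0.83, and r was 0.77 without chromosome 11 and 0.86 without the 2 autosomes farthest from the median gene number per Mb. All points share the 1 library and the span in both denominators. Chromosome 7 had the fewest intervals per gene name, with 40.8 intervals per Mb. It carries 417 names of olfactory or vomeronasal receptors, genes of the sensory epithelia of the nose, while chromosome 11 carries 83. Without such names chromosome 11 had the most genes per Mb, 12.8, and 4.78 intervals per gene name, rank 11. Chromosome 7 still had the fewest intervals per gene name, 3.78.

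**Figure D5:**
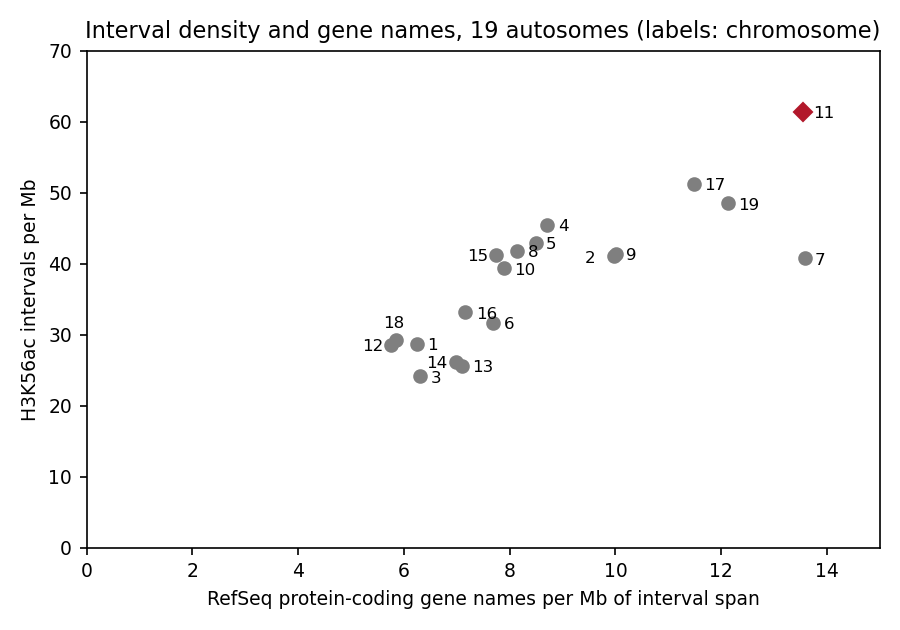
Intervals per Mb against RefSeq protein-coding gene names per Mb of interval span for the 19 autosomes, labelled by chromosome, with chromosome 11 as a red diamond. Chromosome 11 lies at the upper right with 13.5 gene names and 61.4 intervals per Mb, and chromosome 7 has 13.6 gene names with 40.8 intervals per Mb.

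Among the names on chromosome 11 are several groups with well-known roles in stem cells or in differentiated tissue, none of which was placed against the intervals. They include the 10 genes of the Hoxb cluster, which pattern the body axis, and 7 genes of leukaemia inhibitory factor and STAT signalling (Lif, Osm, Stat3, Stat5a, Stat5b, Socs3 and Grb2). Lif and Stat3 maintain mouse embryonic stem cells in culture, Socs3 is a feedback inhibitor of this signalling, and Grb2 is an adaptor that links receptors to Ras. They also include 6 WNT pathway genes (Wnt3, Wnt3a, Wnt9a, Wnt9b, Axin2 and Tcf7). Tissue genes are present as 25 type I keratin names, 11 chemokine names of the Ccl type and 3 alpha-globin names. Myosin heavy chains have 7 names, Myh10 included.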

How the data were processed

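H3K56ac ChIP-seq and input DNA libraries of E14Tg2a cells were made by the authors, 1 of each. Per the submitters' processing notes, Bowtie and build mm9 were used. How intervals were called and at what threshold, and whether the input entered, is not given in the sources used here. What the authors deposited has 3 columns (chromosome, start, end) and no values. Tested on the file, 0 starts or ends were off a 50 bp grid, 0 neighbours overlapped and the smallest gap was 150 bp. The sequence named 21 (106 intervals) and X were left out of all comparisons.

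Intervals were assigned by midpoint to 1 Mb bins from position 1, kept from the first to the last occupied bin. Density used the span from first to last interval. Neighbours were counted edge to edge within 10 kb. Other autosomes were pooled, or summarised as mean ± SD over 18. The regions named are the 5 densest bins, dense blocks of 3 or more bins, the 5 largest clusters, the 5 longest intervals and the 5 longest gaps; lone dense bins and the widest and narrowest bins were added after their values were seen. The members, lists and measures were chosen with earlier results of these data known. Start-site and gene-level results were planned for an mm9 annotation and not computed. Functions were tested on simulated data. The software was scipy 1.17.1, matplotlib 3.10.9, pandas 2.3.3 and numpy 2.4.6 under Python 3.11.15.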

Additional observations from a re-analysis of the deposited data

How the results depend on the processing

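Of 38 alternative values for 11 results, 20 stayed within the counting interval of the main value, the SD over the other autosomes or 1.5 times a count, 18 moved and 0 changed direction. No direction was defined for the share in the densest bins, the cluster number or intervals per gene name, so these could not change it. The 5 alternatives added after the data were seen leave out stretches of the chromosome or receptor gene names. The 1.70-fold density of chromosome 11 was 1.62 with gaps under 500 bp merged, 1.58 with those under 1000 bp merged, 1.81 for intervals wider than the median, 1.84 in interval bases and 1.37 with each cluster counted once, and it ranked first each time. It was 1.56 without its 2 densest bins, and 1.21 with rank 6 without the distal 50% of every autosome. The excess in mean width, 15.0 bp, was 51.2 bp and 105.3 bp after merging under 500 and 1000 bp, which turns dense stretches into wide intervals by construction; without the 2 densest bins it was 8.93 bp, with rank 4. The share in the densest 10% of bins, 36.4%, was 39.1% with 0.5 Mb bins and 33.2% with 2 Mb bins. The width difference between intervals with 6 or more neighbours and with none was 144.0 bp, rank 9 among the autosomes. It was 196.7 bp (rank 5) for neighbours within 5 kb, 121.9 bp (rank 1) within 50 kb and 425.2 bp (rank 12) after merging under 500 bp. The distal ratio, 2.10, was 3.03 for the last 5%, 2.11 for the last 20% and 2.53 for the last 10 Mb. Clusters numbered 2257 at 5 kb and 853 at 25 kb, against 1415. Empty bins were 0.31 times as frequent as elsewhere, 0.57 times with 0.5 Mb bins and 0.63 times with 2 Mb bins. No paired analysis was possible because each group has 1 library. Unmappable sequence was not masked, and without read counts weak sites cannot be told from sites without the mark.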

Other observations

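The gaps between neighbouring intervals of chromosome 11 were short, with a median of 1150 bp, below the 1250 to 2900 bp of the other autosomes, and 66.5% of its intervals had a neighbour within 1 kb (55.8% to 64.1% elsewhere). Gaps of exactly 300 bp numbered 411, against 325 of 250 bp and 275 of 350 bp. The ratio of the count at 300 bp to the mean of those beside it was 1.37, rank 4 of 19 in a range of 1.12 to 1.44, so that this feature of the list was shared by the other autosomes.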
